A study of Mus musculus with 19 samples.

Results

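The lysosomal cathepsins were followed across 19 RNA sequencing libraries of mouse heart. They were taken by name, as the genes Ctsa, Ctsb, Ctsc, Ctsd, Ctsh, Ctsk, Ctsl, Ctso, Ctss and Ctsz, and make up 10 of the 25239 genes in the count table. All 10 passed the filter on low counts and were among the 14301 genes tested. The study set mice without Mcm8, which encodes a DNA helicase of recombination repair, beside wild-type mice in a model of Kawasaki disease, a childhood vasculitis. In this model LCWE, a cell wall extract of Lactobacillus casei, sets off inflammation of the coronary vessels, and PBS, a buffered saline, is the control treatment. The groups were Mcm8-/- hearts with LCWE (n = 5), wild-type hearts with LCWE (n = 6), Mcm8-/- hearts with PBS (n = 3) and wild-type hearts with PBS (n = 5). No source used here gives the strain, age, dose, time after treatment or how the knockout was made. The labels do not say whether each library is 1 animal, so a p-value here speaks of the spread between libraries, which may be technical. Counts of hearts, here and below, are counts of libraries.

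Cathepsins are proteases that break down proteins in lysosomes, the acidic compartment of the cell. They are made as inactive precursors, carried to the lysosome by mannose phosphate receptors and trimmed to the active enzyme at low pH. Cathepsin D is an aspartic protease, cathepsin A a serine carboxypeptidase, and the other members are cysteine proteases of the papain family. Cathepsins B, D and L are made by nearly all cells, while cathepsin S is a product of macrophages and other antigen-presenting cells. In the heart and its vessels, secreted cathepsins are known for cutting elastin and collagen.

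Total counts per library ranged from 11853233 to 16145911. Levels are in CPM, the count divided by the scaled size of the library. Mcm8 lay at 0.392 ± 0.271 CPM in Mcm8-/- LCWE hearts and 4.10 ± 0.996 CPM in wild-type LCWE hearts, and at 0.760 ± 0.147 CPM in Mcm8-/- PBS hearts and 3.66 ± 0.659 CPM in wild-type PBS hearts (SD). It fell in the knockout under LCWE (log2 fold change -3.36 ± 0.34, standard error; edgeR adjusted p = 5.12e-05) and under PBS (-2.26 ± 0.39, edgeR adjusted p = 0.0316). All 10 cardiomyocyte markers were above 0 in every group, with a summed level of 76930 to 114900 CPM. Mcm8-/- PBS replicate 1 stood apart, with the lowest scaling factor (0.909) and reads of the Y-linked gene Ddx3y. Ddx3y was above 10 CPM in 3 of 5 Mcm8-/- LCWE, 1 of 6 wild-type LCWE, 1 of 3 Mcm8-/- PBS and 0 of 5 wild-type PBS libraries, so it is unevenly spread over the groups. In 1 further Mcm8-/- LCWE library, replicate 2, neither Ddx3y (0.454 CPM) nor Xist (0.649 CPM) was above that level. Values without Mcm8-/- PBS replicate 1 stand beside the main results that it moves. The sample numbers in the labels also split the libraries into ranges, whose meaning the labels do not state: 11 of the 19 were numbered from 100 to under 200.

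Sequences before the RefSeq start are shown for 3 members that the results turn on: Ctso, the member that passed the test after LCWE, Ctss, the macrophage cathepsin, and Ctsd, the most abundant one. They come from the RefSeq promoter table on GRCm38.p6, which held 9 starts for 8 of the 10 members and had no entry for Ctsb and Ctsh. Each stretch is the 250 bases before the listed start, read 5′ to 3′ on the gene's strand, and the capitals mark motifs. The E-box CACGTG, a palindrome at the core of the site bound by the lysosomal regulator TFEB, was searched, as was the interferon-stimulated element GAAANNGAAA on both strands. The second motif was added after the promoters had been seen, and no matches of both motifs overlapped.
Ctso (chr3:81932351-81932600, plus strand): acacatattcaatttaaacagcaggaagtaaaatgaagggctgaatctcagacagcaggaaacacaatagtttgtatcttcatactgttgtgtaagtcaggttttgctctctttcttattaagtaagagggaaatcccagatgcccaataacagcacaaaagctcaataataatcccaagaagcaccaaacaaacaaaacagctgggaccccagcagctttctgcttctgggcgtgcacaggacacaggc
Ctss (chr3:95526536-95526785, plus strand): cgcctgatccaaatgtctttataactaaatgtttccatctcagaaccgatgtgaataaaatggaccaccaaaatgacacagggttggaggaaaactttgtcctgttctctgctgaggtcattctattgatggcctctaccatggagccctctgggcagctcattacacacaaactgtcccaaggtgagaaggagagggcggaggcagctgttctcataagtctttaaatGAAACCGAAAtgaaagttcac
Ctsd (chr7:142387828-142388077, minus strand): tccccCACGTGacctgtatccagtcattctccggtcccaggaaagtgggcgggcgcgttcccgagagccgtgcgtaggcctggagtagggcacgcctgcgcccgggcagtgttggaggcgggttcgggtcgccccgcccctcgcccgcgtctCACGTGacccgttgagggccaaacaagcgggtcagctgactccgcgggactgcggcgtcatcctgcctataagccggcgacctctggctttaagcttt
The Ctsd stretch held 2 E-boxes, whose first bases lay 245 and 98 bases before the start. RefSeq places this start inside the GENCODE span of the gene, so 211 of the 250 bases, and the E-box at 98 bases, lie within the annotated Ctsd locus. An E-box also lay 236 bases before the Ctsl start and 12 bases before the second of the Ctsa starts, both likewise within the GENCODE span of their gene. The 250-base stretch of 6.02% of 32851 promoters held this motif. Ctss was the only member with the interferon-stimulated element, at GAAACCGAAA, 21 bases before its start, and 2.98% of promoters held it. Neither motif was in the Ctso stretch. A match is a description of these letters and shows no binding.

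The cathepsin genes lie on 6 chromosomes in GRCm38. Ctso is at chr3:81932601-81956725 and overlaps no annotated gene. Ctsk (chr3:95499256-95509362) and Ctss (chr3:95526786-95556403) are neighbours, 17424 bases apart. Ctsd (chr7:142375911-142388038) shares 6757 bases with Gm49369 on the same strand. Ctsl (chr13:64359337-64370890) holds the pseudogene Gm49230 on its own strand and the antisense gene Gm47123. Ctsa, Ctsb, Ctsc, Ctss and Ctsz overlap other genes too, and since the use of strand in counting is not given, reads in the shared stretches of these 7 members are uncertain.

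Per kilobase of the principal transcript, Ctsd was the most abundant member, with a median of 582 CPM per kb over the 19 libraries. Ctsb, an endopeptidase and exopeptidase, followed at 111 and Ctsa, which also protects lysosomal galactosidase and neuraminidase, at 46.9 CPM per kb. The ranges of these 3 did not overlap with each other. Below them lay Ctsz (a carboxypeptidase) at 35.6, Ctsl (an endopeptidase) at 28.2, Ctsh (an aminopeptidase) at 20.99 and Ctsc at 16.6 CPM per kb. Ctsc encodes dipeptidyl peptidase I, which activates the serine proteases of leukocyte granules. Ctss, the protease of invariant chain in antigen-presenting cells, had a median of 13.8, Ctso 5.76 and Ctsk, the collagenase of osteoclasts, 3.27 CPM per kb. From Ctsa down, each member's range overlapped that of the next. With the length of all exons in place of the principal transcript, Ctss moved above Ctsh and Ctsc.

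**Figure D1:**
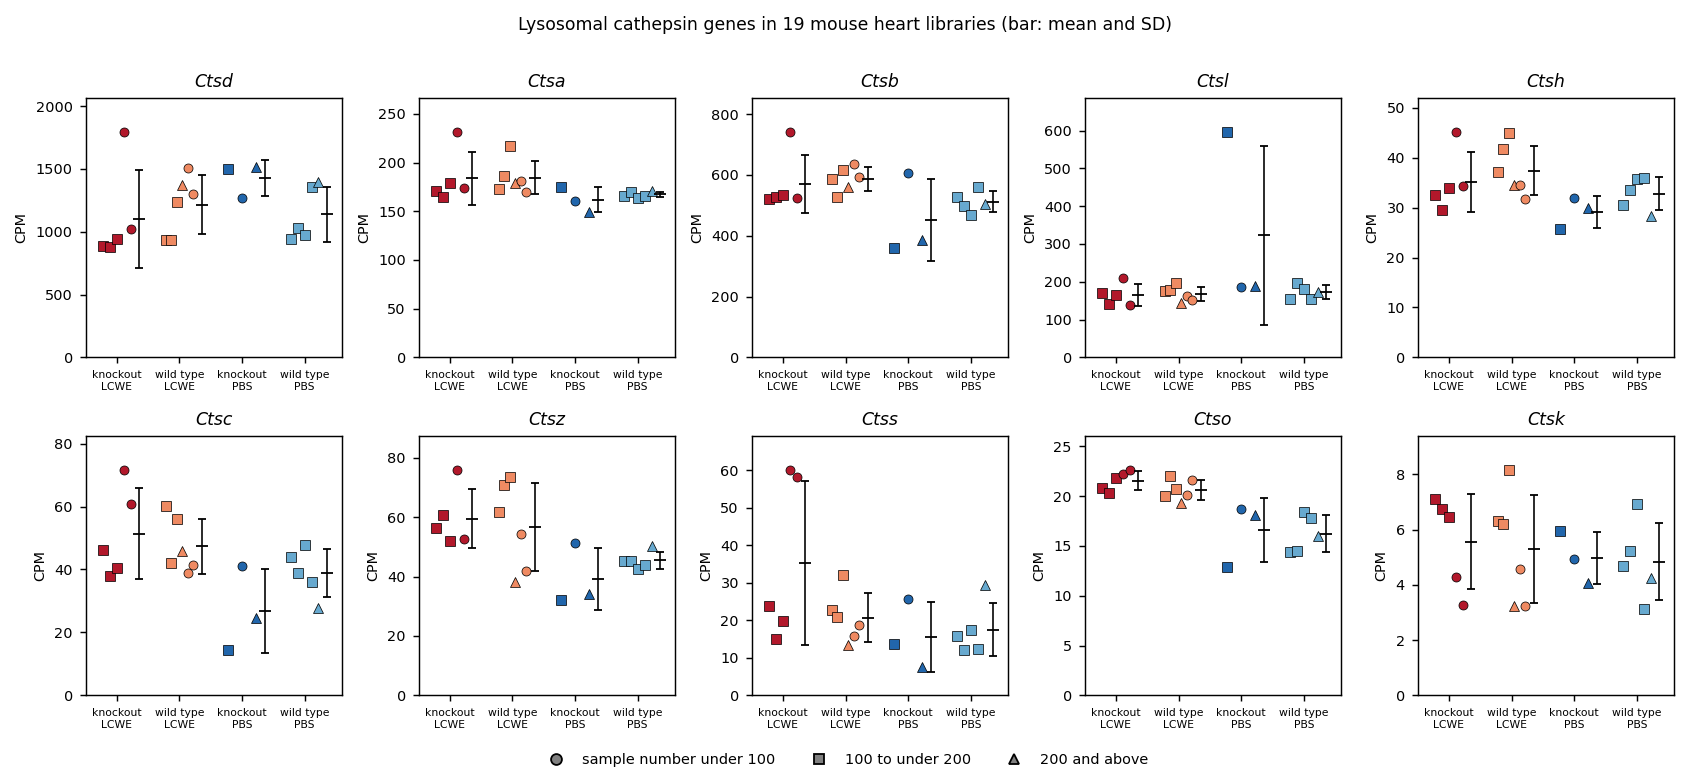
CPM (linear axis from 0) of the 10 cathepsin genes in each library, by group, with the mean and SD as a bar beside the points and the range of the sample number as the shape. The 11 LCWE libraries lie at 19.3 to 22.6 CPM for Ctso, all above the 8 PBS libraries at 12.9 to 18.7 CPM, and for Ctsl 1 Mcm8-/- PBS library lies at 597 CPM.

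The first comparison asked what LCWE does to the cathepsins of the heart when both genotypes are averaged. Like the members, it was chosen with earlier results of these data known, and the adjusted p-values take no account of that choice. Ctso rose by 1.29-fold after LCWE, and in every LCWE library it lay above every PBS library. It was the only 1 of the 10 cathepsins to pass the threshold of adjusted p under 0.05, against 2.95% of all genes tested and 1.35% called as higher. Among the other 9, 7 had a fold above 0 and Ctsd and Ctsl a fold below 0. The median log2 fold change of the 10 was 0.25, against 0.01 over all genes, and 8 of 10 had a fold above 0, against 51.9% of all genes. At an unadjusted p under 0.05 stood 8 of 10 cathepsins, against 25.5% of all genes. Without Mcm8-/- PBS replicate 1 these became 0 of 10 called and 8 of 10 above 0, against 51% of all genes. The median was then 0.20, and 4 of 10 (Ctsa, Ctsc, Ctso and Ctsz) stood at an unadjusted p under 0.05, against 17.6%. With replicate 2 left out instead, edgeR called 6 of 10, against 19.6% of all genes.

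Ctso encodes cathepsin O, a widely expressed papain-family protease. Its level was 20.8, 20.3, 21.8, 22.2 and 22.6 CPM in Mcm8-/- LCWE hearts and 19.3 to 21.98 CPM with a median of 20.4 CPM in the 6 wild-type LCWE hearts. It was 12.9, 18.7 and 18.1 CPM in Mcm8-/- PBS hearts and 14.4, 14.5, 18.4, 17.8 and 16.03 CPM in wild-type PBS hearts. The treatments did not overlap over all libraries, which fixes the same result for any subset of them. At numbers from 100 to under 200, LCWE hearts held 19.99 to 21.98 CPM and PBS hearts 12.9 to 18.4 CPM. When Mcm8-/- PBS replicate 1 was left out, the PBS hearts held 14.4 to 18.7 CPM. Of the 14301 genes, 8 (0.0559%) separated all LCWE from all PBS libraries, and Ctso was one of them.

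The averaged log2 fold change of Ctso was 0.36 ± 0.08 (edgeR adjusted p = 0.0318). It was 0.38 ± 0.12 in Mcm8-/- hearts (edgeR adjusted p = 0.0780) and 0.35 ± 0.10 in wild-type hearts (edgeR adjusted p = 0.772). The interaction was 0.03 ± 0.16 (edgeR adjusted p = 0.974). The averaged call was lost in 8 of the 19 fits that left out 1 library. Without Mcm8-/- PBS replicate 1 the fold was 0.28 (edgeR adjusted p = 0.132), and 0 of 14500 genes then passed. In the 7 other such fits the folds were 0.34 to 0.39 and the edgeR adjusted p-values 0.0510 to 0.0617; they left out wild-type PBS replicate 1, 2, 3 or 5, Mcm8-/- PBS replicate 3, or Mcm8-/- LCWE replicate 3 or 5. With the range of the sample number as a covariate the fold was 0.35 (edgeR adjusted p = 0.0645).

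**Figure D2:**
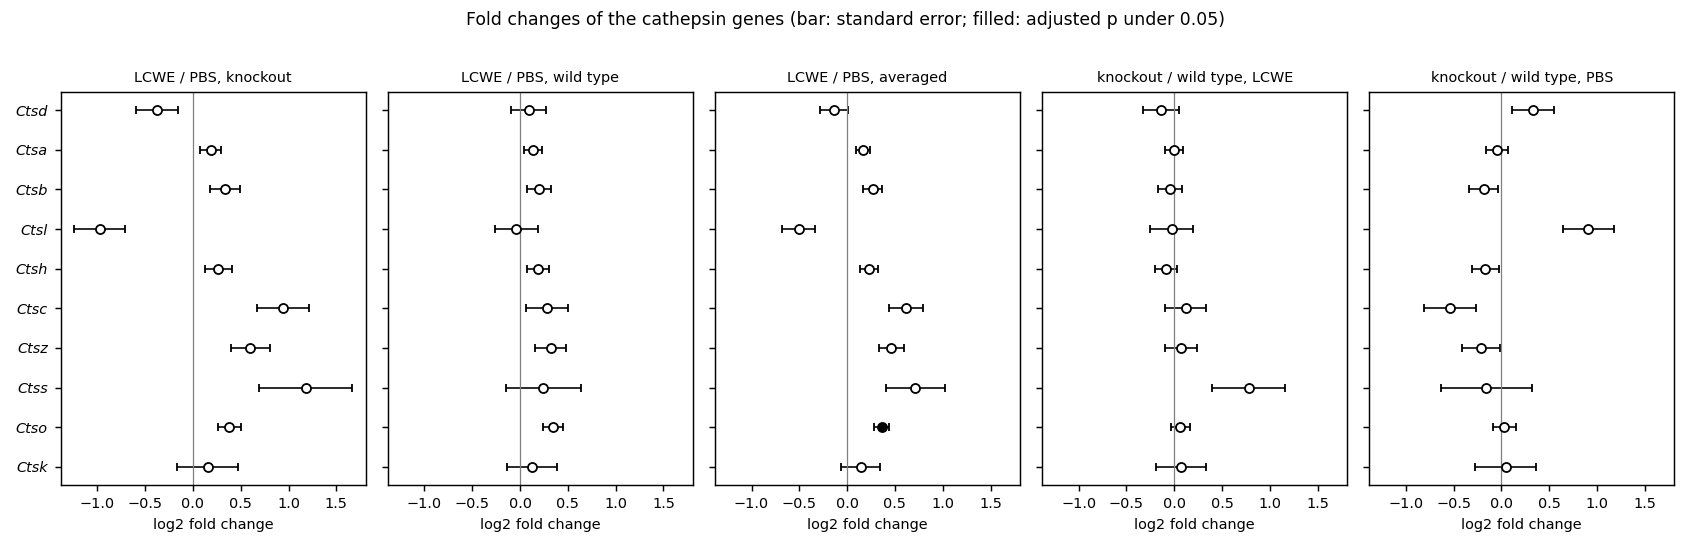
Log2 fold change (x axis) of each cathepsin gene in 5 comparisons, with the standard error as the bar and a filled point where the adjusted p was under 0.05. Ctso in the averaged comparison of LCWE with PBS (0.36 ± 0.08) is the filled point, and the widest bars are those of Ctss.

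Ctsc, Ctsz and Ctss, the members most tied to leukocytes, had the highest averaged folds after LCWE without passing the test. Ctsc had a log2 fold change of 0.61 ± 0.18 (edgeR adjusted p = 0.0573), Ctsz 0.46 ± 0.13 (0.0543) and Ctss 0.71 ± 0.31 (0.163). Their treatments overlapped. Ctsz was 56.3, 60.8, 52.1, 76.0 and 52.5 CPM in Mcm8-/- LCWE hearts and 38.1 to 73.5 CPM with a median of 58.0 CPM in wild-type LCWE hearts. It was 32.2, 51.4 and 34.1 CPM in Mcm8-/- PBS hearts and 45.3, 45.1, 42.6, 43.9 and 50.4 CPM in wild-type PBS hearts. Within the knockout every LCWE heart was above every PBS heart, while in wild type 2 LCWE hearts lay below all PBS hearts. Ctsc was 46.2, 37.8, 40.5, 71.7 and 60.8 CPM in Mcm8-/- LCWE hearts and 38.9 to 60.3 CPM with a median of 43.9 CPM in wild-type LCWE hearts. It was 14.6, 41.0 and 24.6 CPM in Mcm8-/- PBS hearts and 44.0, 38.9, 47.7, 36.03 and 27.9 CPM in wild-type PBS hearts. The lowest Ctsc level was that of Mcm8-/- PBS replicate 1, and without that library its averaged fold was 0.46 ± 0.16 (edgeR adjusted p = 0.183). Without it the averaged fold of Ctsz was 0.39 ± 0.14 (edgeR adjusted p = 0.184) and that of Ctss 0.66 ± 0.35 (0.342).

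Ctsb, Ctsa and Ctsh, members made by most cells, had smaller folds. Averaged over genotypes they were 0.27 ± 0.10 for Ctsb (edgeR adjusted p = 0.110), 0.16 ± 0.07 for Ctsa (0.174) and 0.23 ± 0.09 for Ctsh (0.130). Ctsa lay at 170.2 to 218 CPM in wild-type LCWE hearts, against 164 to 170.3 CPM in wild-type PBS hearts. Ctsk averaged 0.14 ± 0.21 (edgeR adjusted p = 0.710) at 3.14 to 8.16 CPM. Ctsd averaged -0.14 ± 0.14 (edgeR adjusted p = 0.571).

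In Mcm8-/- hearts the effect of LCWE was taken against only 3 PBS libraries. By edgeR 0 of 10 cathepsins passed, against 2.9% of all genes (415). Folds above 0 were found for 8 of 10, against 50.9%, and 6 of 10 were at an unadjusted p under 0.05, against 23.4%. DESeq2 called 4 of 10, Ctsc, Ctso and Ctsz as higher and Ctsl as lower, against 8.2% of the genes it adjusted, and limma-voom 0. The edgeR folds were 0.94 ± 0.27 for Ctsc (adjusted p = 0.0603), 0.60 ± 0.20 for Ctsz (0.0874), 1.18 ± 0.49 for Ctss (0.157) and 0.34 ± 0.15 for Ctsb (0.193). The groups did not overlap for 2 members, Ctso and Ctsz, both higher after LCWE, against 8.61% of all genes. Without Mcm8-/- PBS replicate 2, edgeR called 6 of 10 cathepsins (Ctsb, Ctsc, Ctso, Ctss and Ctsz higher, Ctsl lower), against 20.2% of all genes. Without replicate 1 instead, it called 0 of 10 and 1 gene in all (0.0069%). The folds were then 0.65 ± 0.26 for Ctsc (edgeR adjusted p = 0.376), 0.48 ± 0.22 for Ctsz (0.435), 1.095 ± 0.59 for Ctss (0.489), 0.23 ± 0.11 for Ctso (0.451) and 0.20 ± 0.16 for Ctsb (0.653). At an unadjusted p under 0.05 stood 2 of 10, Ctsc and Ctsz, against 11.2% of all genes. With Ddx3y reads as a covariate edgeR called 1 of 10, Ctsl, against 5.52% of all genes.

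Ctsl was the member that 1 library decided. It was 169, 142, 165, 210.3 and 138 CPM in Mcm8-/- LCWE hearts and 145 to 197 CPM with a median of 168 CPM in wild-type LCWE hearts. It was 597, 185 and 188 CPM in Mcm8-/- PBS hearts and 155.5, 197, 182, 155 and 174 CPM in wild-type PBS hearts. The 597 CPM belonged to Mcm8-/- PBS replicate 1, and the other 18 libraries lay between 138 and 210.3 CPM. Its log2 fold change for LCWE in Mcm8-/- hearts was -0.97 ± 0.27 (edgeR adjusted p = 0.0527) with that library and -0.18 ± 0.15 without it (0.670). For knockout over wild type under PBS it was 0.91 ± 0.27 (edgeR adjusted p = 0.0858) with that library and 0.11 ± 0.15 without it (0.927). Without Mcm8-/- PBS replicate 2, both edgeR tests passed (-1.25, adjusted p = 0.00321, and 1.19, adjusted p = 0.00499). Without replicate 3 the LCWE test passed (-1.25, edgeR adjusted p = 0.0436).

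In wild-type hearts edgeR called 0 of 10 cathepsins after LCWE and 0 of all genes (0%). At an unadjusted p under 0.05 stood 1 of 10, Ctso, against 6.24% of all genes, and DESeq2 (0.00502% of genes) and limma-voom called 0 of 10. Folds above 0 were found for 9 of 10 cathepsins, against 51.5% of all genes, with a median of 0.19 against 0.01. Ctso, which separated all LCWE from all PBS libraries, was the 1 member whose wild-type groups did not overlap, against 0.699% of all genes. Ctsz had a log2 fold change of 0.32 ± 0.16 (edgeR adjusted p = 0.772), Ctsc 0.28 ± 0.22 (0.870) and Ctss 0.24 ± 0.39 (0.952).

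Within the libraries numbered from 100 to under 200, the wild-type picture differed for Ctss and Ctsz. There Ctss was 22.9, 20.9 and 32.2 CPM in 3 wild-type LCWE hearts and 15.9, 12.2, 17.5 and 12.4 CPM in 4 wild-type PBS hearts. Ctsz was 61.6, 71.0 and 73.5 CPM in these LCWE hearts and 45.3, 45.1, 42.6 and 43.9 CPM in these PBS hearts. Neither gene's groups overlapped, and both rose: Ctsz by 0.60 ± 0.09 (edgeR adjusted p = 0.0107) and Ctss by 0.77 ± 0.19 (0.0320). The edgeR call was made for these 2 of 10 cathepsins and for 8.28% of the 14747 genes tested in that range. Outside it, the wild-type PBS group had 1 library, replicate 5, with 29.4 CPM of Ctss, above 5 of the 6 wild-type LCWE hearts. In wild type at numbers from 100 to under 200, the groups of Ctsa, Ctsh and Ctso did not overlap either. The share of all genes without overlap in that range was not counted, so these separations are values only and not a result about the cathepsins. The summed level of 20 macrophage and monocyte markers was 821, 846 and 1020 CPM in the 3 wild-type LCWE hearts of this range. In the wild-type LCWE hearts outside it the sum was 457 to 596 CPM. Wild-type LCWE replicate 1, which lies in this range, was the 1 library of its group with Ddx3y above 10 CPM. The part of these in the folds was not tested. In the same range the Mcm8-/- PBS group is replicate 1 alone.

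**Figure D3:**
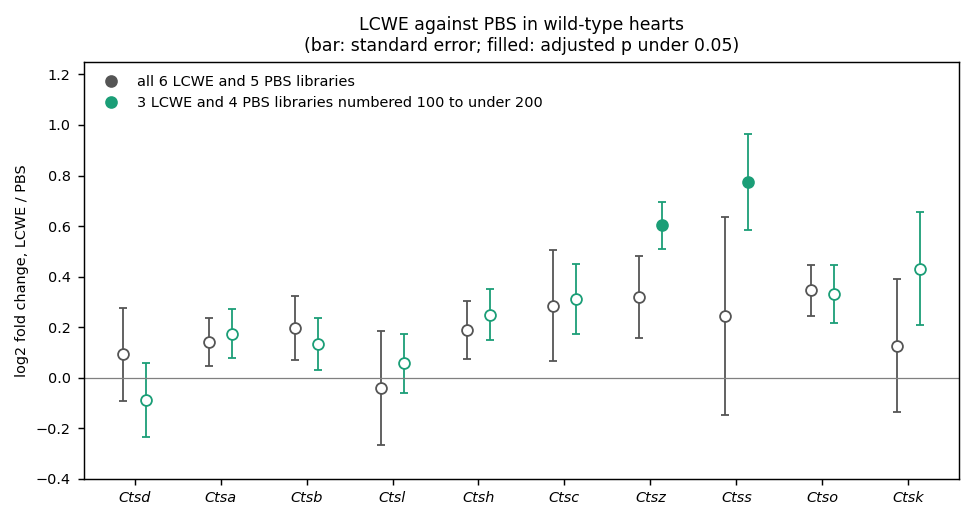
Log2 fold change of LCWE over PBS in wild-type hearts (y axis) for each cathepsin gene, from all libraries (grey) and from those numbered 100 to under 200 (green), with standard errors as bars. Ctsz and Ctss are filled in green, at 0.60 and 0.77, and no gene is filled in grey.

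The comparison of knockout with wild type asked whether loss of Mcm8 alters the cathepsins under each treatment. Under LCWE edgeR, DESeq2 and limma-voom called 0 of 10, against 0.00699% of all genes by edgeR and 0.0549% by DESeq2, and 0 of 10 were at an unadjusted p under 0.05, against 5.55%. The groups overlapped for all 10, against 0.531% of genes that did not, and 5 of 10 folds were above 0, against 50.7%. Ctss had the highest fold, 0.78 ± 0.38 (edgeR adjusted p = 0.893), and the other 9 lay between -0.14 and 0.12. Ctss was 23.7, 14.9, 19.9, 60.2 and 58.1 CPM in Mcm8-/- LCWE hearts and 13.5 to 32.2 CPM with a median of 19.8 CPM in wild-type LCWE hearts. The 2 hearts at 60.2 and 58.1 CPM are Mcm8-/- LCWE replicates 4 and 5, and the other 3 lay within the wild-type range. Within the numbers from 100 to under 200 the Ctss fold was -0.36 ± 0.20 (edgeR adjusted p = 0.465), of the opposite sign. In these 2 hearts the summed level of 20 macrophage and monocyte markers was 1625 and 997 CPM, against 545 to 645 CPM in the other 3 Mcm8-/- LCWE hearts. These 2 are also the hearts of that group numbered under 100. The myosin gene Myh7 was at 16700 and 20420 CPM in them, against 729.9 to 1701 CPM in the other 3. Mcm8-/- PBS replicates 1 and 3 also had high Myh7, 14210 and 13250 CPM, at low Ctss levels of 13.7 and 7.46 CPM. Replicate 2 of that group, with 803 CPM of Myh7, held 25.7 CPM of Ctss. The part of the macrophage markers, of Myh7 or of the sample number in the Ctss levels was not tested.

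Under PBS edgeR called 0 of 10 cathepsins between knockout and wild type, against 0.601% of all genes. At an unadjusted p under 0.05 stood 1 of 10, Ctsl, against 19.7% of all genes, DESeq2 also called Ctsl, against 5.21%, and limma-voom 0. The groups overlapped for all 10, against 7.72% of genes that did not, and 4 of 10 folds were above 0, against 50.2%. Ctsc had a log2 fold change of -0.54 ± 0.27 (edgeR adjusted p = 0.275), Ctsd 0.33 ± 0.22 (0.417) and Ctso 0.03 ± 0.12 (0.918). Without Mcm8-/- PBS replicate 1 these folds were -0.24 ± 0.26 for Ctsc (edgeR adjusted p = 0.906), 0.29 ± 0.26 for Ctsd (0.888) and 0.18 ± 0.11 for Ctso (0.841), and 0 of 10 stood at an unadjusted p under 0.05, against 6.43%. With replicate 2 left out instead, edgeR called 3 of 10, against 17.9% of all genes. Ctsb (-0.45, edgeR adjusted p = 0.0329) and Ctsc (-0.99, 0.0188) were then lower in the knockout and Ctsl was higher. Ctss was 13.7, 25.7 and 7.46 CPM in Mcm8-/- PBS hearts and 15.9, 12.2, 17.5, 12.4 and 29.4 CPM in wild-type PBS hearts, with overlap. The interaction, the LCWE effect in Mcm8-/- hearts minus that in wild-type hearts, was called by edgeR, DESeq2 and limma-voom for 0 of 10 cathepsins, against 0% of all genes by edgeR. It was above 0 for 8 of 10, against 47.1%. At an unadjusted p under 0.05 stood 1 of 10, Ctsl (-0.93 ± 0.35, edgeR adjusted p = 0.587), against 8.01% of all genes. The Ctsl interaction without Mcm8-/- PBS replicate 1 was -0.13 ± 0.19 (edgeR adjusted p = 0.999), and 0 of 10 stood at that level. For Ctss the interaction was 0.93 ± 0.61 (edgeR adjusted p = 0.717) and for Ctsc 0.66 ± 0.35 (0.643), or 0.37 ± 0.32 (0.999) without that library. The LCWE and genotype comparisons share the Mcm8-/- PBS libraries.

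Macrophage and monocyte markers moved with the treatment. Their summed level was 545 to 1625 CPM in Mcm8-/- LCWE hearts and 457 to 1020 CPM in wild-type LCWE hearts, against 239 to 572 CPM in Mcm8-/- PBS hearts and 408 to 506 CPM in wild-type PBS hearts. Of the 20 markers, 12 rose and 0 fell in the averaged comparison, against 1.35% of all genes called as higher, and none was at 0 in any group. In wild type alone 0 of 20 passed the test, and without Mcm8-/- PBS replicate 1 no gene passed the averaged comparison. Markers of other cells moved too: in the averaged comparison 1 of 6 T and NK cell markers rose (median log2 fold change 1.72) and 1 of 10 fibroblast markers rose (median 0.50). Of 10 endothelial markers, 2 fell, Cd36 and Sox17 (median -0.14), against 2.95% of all genes called in either direction. Of 10 cardiomyocyte markers 1 rose (median 0.13), as did 1 of 4 tested markers of thymus, adipose, liver and blood (median 0.56). Called in neither direction were the 6 tested dendritic and B cell markers and the 8 smooth muscle and pericyte markers. Across the 19 libraries the log2 level of the macrophage marker sum ran with that of 7 cathepsins: Pearson r was 0.86 for Ctsz, 0.84 for Ctss, 0.83 for Ctsc, 0.79 for Ctsb, 0.79 for Ctsh, 0.77 for Ctsa and 0.69 for Ctso. Without the 2 libraries farthest from the median sum, Mcm8-/- LCWE replicate 4 and Mcm8-/- PBS replicate 3, r was 0.51 to 0.80 for these 7. Over all libraries it was 0.12 for Ctsk, -0.11 for Ctsd and -0.29 for Ctsl, and without those 2 libraries 0.16, -0.40 and -0.49 in the same order. With only Mcm8-/- PBS replicate 1 left out it was 0.18 for Ctsk, -0.01 for Ctsd and 0.14 for Ctsl, and 0.64 to 0.86 for the 7. The libraries share treatment and scaling, so these are descriptions, and the part of macrophages in the cathepsin levels was not tested. In bulk tissue, fewer cells of a type and less RNA per cell cannot be told apart. Neutrophil markers summed to 6.80 to 116 CPM in Mcm8-/- LCWE hearts and 7.23 to 62.4 CPM in wild-type LCWE hearts, against 3.78 to 6.17 CPM in Mcm8-/- PBS hearts and 2.81 to 9.81 CPM in wild-type PBS hearts. In the averaged comparison 3 of 8 tested neutrophil markers rose and 0 fell (median log2 fold change 2.89). The granule protease gene Elane and the granule genes Mpo and Prtn3, as well as Ly6g, were under 1 CPM in every group.

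**Figure D4:**
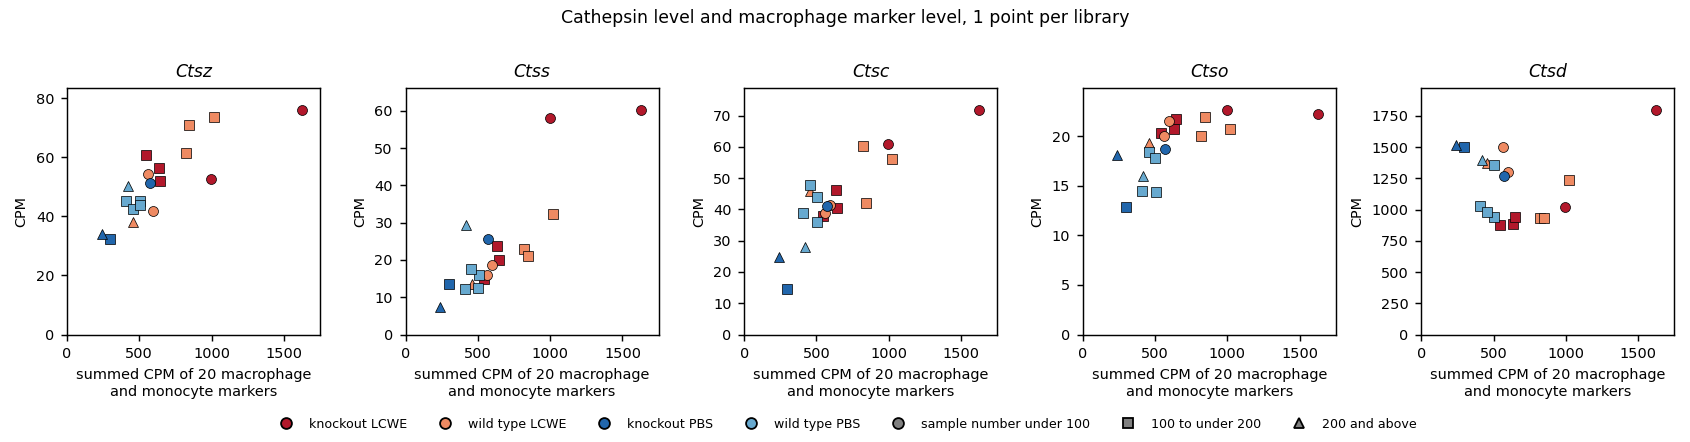
CPM of 5 cathepsin genes (y axes, linear from 0) against the summed CPM of 20 macrophage and monocyte markers (x axis), 1 point per library, with the group as colour and the range of the sample number as shape. Ctsz, Ctss, Ctsc and Ctso run with the sum (r on the log2 scale 0.86, 0.84, 0.83 and 0.69), and for Ctsd r is -0.11.

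Among themselves, the cathepsins fell into members that ran together and members that did not. Over the 19 libraries the correlations of log2 CPM were highest for Ctsb with Ctsc (r = 0.79), Ctsc with Ctsh (r = 0.76) and Ctsa with Ctsh (r = 0.74). Ctsl ran against Ctsc (r = -0.63) and Ctso (r = -0.57), and Ctsd against Ctsk (r = -0.51). Mcm8-/- PBS replicate 1 holds the highest Ctsl and the lowest Ctsc and Ctso. Without it r was 0.08 for Ctsl with Ctsc, -0.14 for Ctsl with Ctso and -0.57 for Ctsd with Ctsk. The negative values of Ctsl with Ctsc and Ctso thus rest on that library. The order of the highest pairs also changed without it. There r was 0.65 for Ctsb with Ctsc, 0.69 for Ctsc with Ctsh and 0.83 for Ctsa with Ctsh. Ctsk and Ctsd were also set out by range of the sample number, without a test. After LCWE, Ctsk was 6.19 to 8.16 CPM in the 6 hearts numbered 100 to under 200, against 3.25 to 4.58 CPM in the 4 numbered under 100. Ctsd was 874 to 1238 CPM in those 6 hearts, against 1018 to 1795 CPM in those 4, with overlap. The 1 LCWE heart numbered 200 and above held 3.22 CPM of Ctsk and 1373 CPM of Ctsd. The summed level of the 10 fibroblast markers was 1859 to 2299 CPM in those 6 hearts and 1226 to 1519 CPM in those 4. Its part was not tested, and the share of all genes split by range was not counted. In PBS hearts the 1 library numbered under 100 lay within the range of the 5 numbered 100 to under 200, at 4.94 CPM of Ctsk (3.14 to 6.92) and 1266 CPM of Ctsd (942 to 1499).

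**Figure D5:**
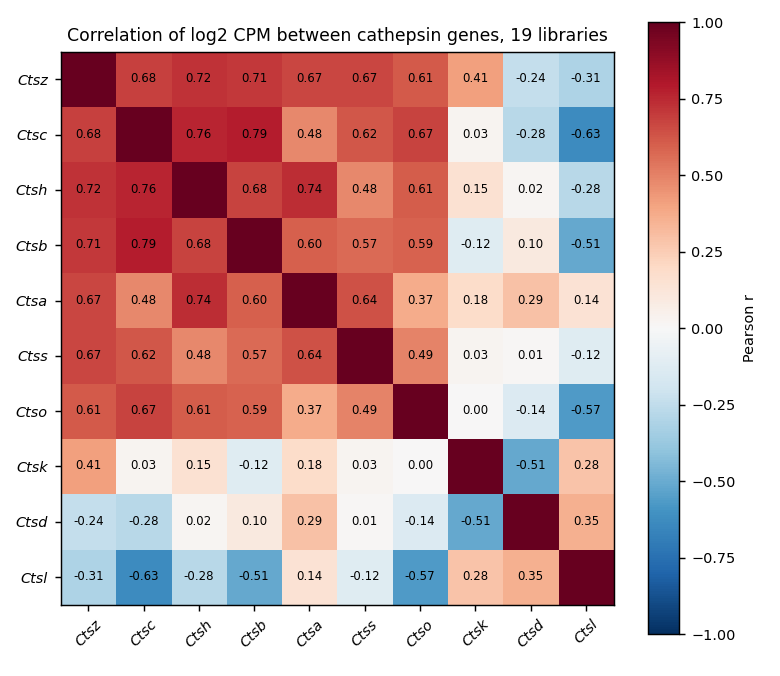
Pearson r of log2 CPM over the 19 libraries for each pair of cathepsin genes (both axes), with the colour running from -1 (blue) to 1 (red). The block of Ctsz, Ctsc, Ctsh, Ctsb and Ctsa is red throughout (0.48 to 0.79), and the row of Ctsl holds the lowest value, -0.63 with Ctsc, which is 0.08 without Mcm8-/- PBS replicate 1.

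The genes most like each cathepsin were sought among 10562 genes with a mean of at least 5 CPM, by Pearson r of log2 CPM over the 19 libraries. For Ctss the nearest were Mpeg1, which encodes the macrophage pore protein perforin-2 (r = 0.93), Itgb2, the leukocyte integrin chain CD18 (r = 0.91), and Cybb, the phagocyte oxidase subunit (r = 0.91). For Ctsc they were Cd300ld (r = 0.94), the lysosomal protease gene Lgmn (r = 0.93) and Adgre1, which encodes F4/80 (r = 0.91). For Ctsz they were Fxyd5 (r = 0.93), Sh3bgrl3 (r = 0.93) and the myeloid adaptor gene Tyrobp (r = 0.92). Ctsk was nearest to Knop1 (r = 0.91), the gelatinase gene Mmp2 (r = 0.91) and Ralgds (r = 0.89). Ctsd was nearest to the chaperone gene Clu (r = 0.96), Ctsb to the peptidase gene Apeh (r = 0.95) and Ctsl to Map2k3 (r = 0.92, or 0.55 without Mcm8-/- PBS replicate 1). Ctsa was nearest to Npc2, which encodes a lysosomal cholesterol carrier (r = 0.86), Ctsh to Capg (r = 0.86) and Ctso to the mitochondrial carrier gene Slc25a10 (r = 0.86).

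Other genes of the cathepsin system were counted in the averaged comparison of LCWE with PBS, in which 2.95% of all genes passed the test. Of the inhibitors, 1 of 9 tested rose and 0 fell: Serpina3g, a serpin that blocks cathepsins, by 2.03 ± 0.46 on the log2 scale (edgeR adjusted p = 0.0370) at a mean of 1.32 CPM. Of 13 genes for sorting, activation and partners, 1 rose and 0 fell. This was Lgmn, which encodes legumain, the protease that trims cathepsin precursors (0.54 ± 0.12, edgeR adjusted p = 0.0370). Lgmn also rose in Mcm8-/- hearts alone (0.81 ± 0.19, edgeR adjusted p = 0.0346), and in wild type its fold was 0.27 ± 0.15 (0.800). The interaction of Lgmn was 0.54 ± 0.24 (edgeR adjusted p = 0.599). Its fold in Mcm8-/- hearts without PBS replicate 1 was 0.61 ± 0.19 (edgeR adjusted p = 0.281). Of 28 other lysosomal hydrolases, 1 rose and 0 fell: Acp5, the tartrate-resistant phosphatase of macrophages and osteoclasts (1.79 ± 0.39, edgeR adjusted p = 0.0309). Of 20 genes for the lysosomal membrane and its acidification, 0 rose and 1 fell, the proton pump subunit gene Atp6v0c (-0.70 ± 0.16, edgeR adjusted p = 0.0370) at a mean of 1.59 CPM. Of 7 transcription factors, 1 rose and 0 fell: Spi1, the myeloid regulator PU.1 (1.02 ± 0.25, edgeR adjusted p = 0.0397). Tfeb, the regulator of lysosomal genes, had a fold of -0.10 ± 0.09 (edgeR adjusted p = 0.544). Medians over these lists ran from 0.01 to 0.19, against 0.01 over all genes. When Mcm8-/- PBS replicate 1 was left out, the folds of the 5 called genes were 1.83 for Serpina3g, 0.43 for Lgmn, 1.65 for Acp5, -0.67 for Atp6v0c and 0.94 for Spi1, and none passed (edgeR adjusted p-values 0.133 to 0.147).

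Of 14 further genes named as cathepsins in the table, 2 were tested. Ctsw, a protease gene of natural killer and cytotoxic T cells, rose by 1.82 ± 0.39 after LCWE (edgeR adjusted p = 0.0295). Its fold was 1.65 ± 0.42 when Mcm8-/- PBS replicate 1 was left out (edgeR adjusted p = 0.133). Ctsw lay at 1.45 ± 0.804 CPM in Mcm8-/- LCWE hearts and 1.32 ± 0.809 CPM in wild-type LCWE hearts, against 0.454 ± 0.213 CPM in Mcm8-/- PBS hearts and 0.326 ± 0.167 CPM in wild-type PBS hearts (SD). Ctsf, a papain-family member, had a fold of -0.15 ± 0.08 (edgeR adjusted p = 0.211) at a mean of 60.6 CPM. Ctsg, the neutrophil cathepsin, reached at most 2 counts in any library. The placental cathepsin genes of the Ctsl cluster, among them Ctsj, Ctsm and Ctsq, had at most 1 count.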

How the data were processed

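Gene counts of 19 heart libraries were used as deposited by the authors, as whole numbers in 1 table of 25239 gene symbols, not normalized. Per the labels' protocols, the extracted total RNA went through reverse transcription and preamplification before library construction. STAR 2.7.8a, limma 3.36.160 and the build GRCm38 stand in the submitters' processing notes without roles. No source used here gives the counting program, the annotation or the use of strand. Totals ran from 11853233 to 16145911 counts, and 0 columns of other samples were used. No 2 libraries looked alike enough to be duplicates (chi-square of at least 7.20 per gene).

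Genes were filtered with filterByExpr (minimum count 10, minimum total 15), scaled by TMM and tested by robust quasi-likelihood in edgeR 4.0.16 under R 4.3.3, all 4 groups in 1 model, for 6 comparisons. P-values were adjusted over all 14301 tested genes by Benjamini and Hochberg, with 0.05 as the threshold. Standard errors were taken from the fold and its F statistic. CPM used the TMM factors, with a prior count of 2 on the log2 scale. The scripts were tested on simulated counts. GENCODE M21 gave loci for 24366 symbols.

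All 10 cathepsins are named in every comparison, called genes of each pathway list, and up to 3 genes most like each cathepsin. Members, lists, the averaged comparison and tests were chosen with earlier results of these data known. Groups came from genotype and treatment in the labels. Alternatives were RLE size factors, library totals, no filter, a stricter filter (5 CPM in 3 libraries), DESeq2 1.42.0, voom of limma 3.58.1, only the groups compared, the sample-number range as a covariate or 1 range only, Ddx3y reads as a covariate, and each library left out. The totals and the Ddx3y covariate were added after the data were seen.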

Additional observations from a re-analysis of the deposited data

Results flagged for a closer look

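In 4 of 30 group and gene combinations with enough libraries, 1 library lay farther from the rest than Dixon's ratio allows at 95%. Chance gives such a gap in about 1 in 20 groups taken singly. The 30 combinations share the same libraries, so the 4 are not separate events. In Mcm8-/- LCWE hearts, replicate 4 held the highest level of 8 of the 10 members and stood this far apart for 3 of them. There Ctsb was at 742 CPM and the next heart at 532 CPM (ratio of the gap to the range 0.952), Ctsd at 1795 CPM and the next at 1018 CPM (0.844), and Ctsa at 232 CPM and the next at 179 CPM (0.790). The same library had the highest macrophage marker sum, 1625 CPM, and 16700 CPM of Myh7, and their part in these levels was not tested. In wild-type LCWE hearts, replicate 3 held 218 CPM of Ctsa and the next heart 186 CPM (0.671), with a macrophage marker sum of 1020 CPM, the highest of that group.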

How the results depend on the processing

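Folds of single members were recomputed for the 35 combinations of member and comparison whose fold was at least its standard error. In the 19 fits that each left out 1 library none of these folds changed sign. With DESeq2 4 cathepsins were called in the averaged comparison of LCWE with PBS, 4 in LCWE in the knockout and 1 in knockout against wild type under PBS, against 1, 0 and 0 by edgeR. The sample-number range as a covariate gave 0, 0 and 1 in the same order, and the Ddx3y covariate 3, 1 and 0. In the range from 100 to under 200 alone the Mcm8-/- PBS group is replicate 1, assumed to vary like the others, so that calls against it compare that library and not the condition; 8, 6 and 4 were called in that order, 2 in LCWE in wild type and 2 in the interaction. For LCWE in wild type, 8.28% of all genes were called in that range. For the other counts no share of all genes is given, so they are values only and not a result about the cathepsins. In that range the median fold of knockout against wild type under LCWE was -0.19. There 3 folds changed sign: Ctsa for LCWE in the knockout (-0.041), Ctss for knockout against wild type under LCWE (-0.36) and the Ctss interaction (-0.27). With 1 library left out, 0 to 6 cathepsins were called in the averaged comparison, 0 to 6 for LCWE in the knockout and 0 to 3 for knockout against wild type under PBS; other comparisons gave 0.

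Over all genes, the 422 calls of the averaged comparison became 1309 by DESeq2, 144 by voom, 234 without a filter, 51 with the range covariate, 932 with the Ddx3y covariate and 0 to 2847 with 1 library left out. The 415 for LCWE in the knockout became 1227 by DESeq2, 113 by voom, 0 with only the groups compared, 116 with the range covariate, 789 with the Ddx3y covariate, 229 with library totals and 1 to 2935 with 1 library left out. The 86 for knockout against wild type under PBS became 701 by DESeq2, 1 by voom, 1 with only the groups compared, 524 with the range covariate, 0 with the Ddx3y covariate, 21 with library totals and 0 to 2606 with 1 library left out. The cause was not tested. No paired analysis was possible because the labels give the groups no shared replicate numbers. The lowest count of a member was 41, for Ctsk, where counting error is widest.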
